A study of Homo sapiens with 31 samples.

Results

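The caveolae genes described here are CAV1, CAV2, CAVIN1, CAVIN2, CAVIN3 and EHD2. They were chosen by name, with earlier results of these data known. All 6 of 6 were present among the 17113 protein-coding genes counted in the series. In the study, total RNA from colorectal cancer lines was diluted into total RNA of a normal colon line at known percentages, to test whether the share of cancer RNA can be computed from a mixture. It held 31 RNA-seq libraries, of which 15 were from unmixed lines and 16 from mixtures. The cancer lines were LoVo, HT-29 and HCT116, labelled as adenocarcinoma lines of the colon, and LS1034, labelled as an adenocarcinoma line of the cecum. The normal line was CCD841CoN, from the colon. Each of the 5 lines had 3 unmixed libraries. Each cancer line also had 1 mixture at each of 0.1, 1, 10 and 50% cancer RNA, with CCD841CoN RNA making up the rest (99.9, 99, 90 and 50%). No line received a treatment, and the labels do not say which of the 2 culture media was used for which line.

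Caveolae are flask-shaped pits of the plasma membrane that are rich in cholesterol and abundant in fibroblasts, adipocytes, endothelium and muscle. Caveolins insert into the inner leaflet as oligomers, cavins form a coat around them in the cytoplasm, and EHD2 binds at the neck of the pit and holds it at the cell surface. When the membrane is stretched, caveolae flatten and cavins leave the coat.

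Levels are given as counts per 1000000 counts of the library (CPM). CPM does not correct for gene length, so levels are compared between libraries for 1 gene and not between genes. The libraries held 9688765 to 56741879 counts, and all 6 genes passed the filter on low counts. The 15 unmixed libraries were fitted together with edgeR's quasi-likelihood test, with p-values adjusted by Benjamini and Hochberg over 14452 genes. A gene was called where its adjusted p was under 0.05 and its log2 fold change was 1 or more in either direction. Log2 fold changes are given ± SE. The labels name no separate cultures, so p-values here measure the spread between libraries, which may be technical. In RNA from many cells, fewer cells with a transcript and less of it in each cell cannot be told apart.

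Markers were checked against the labels. The summed level of 12 epithelial markers was 3368 to 26574 CPM in the 12 cancer libraries, against 240 to 316 CPM in CCD841CoN, where KRT20, VIL1 and CDH17 had no counts. The summed level of 12 fibroblast markers was 2.15 to 33.8 CPM in the cancer libraries, against 25588 to 30032 CPM in CCD841CoN. The labelled normal colon line thus had no counts of 3 of 12 epithelial markers and a high level of the fibroblast markers. The 8 muscle markers found summed to 4.63 to 16.3 CPM in the cancer libraries, against 1828 to 2105 CPM in CCD841CoN. The 7 endothelial markers found summed to 2.62 to 102 CPM in the cancer libraries and to 1.80 to 3.29 CPM in CCD841CoN, where ERG and EMCN had no counts. The 5 adipocyte markers found summed to 29.3 to 174 CPM in the cancer libraries and to 68.8 to 97.4 CPM in CCD841CoN, where PLIN1 had no counts. With a single normal line, the part that cancer and the part that cell type play in any difference from it cannot be told apart.

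A pair of libraries stood apart. In HT-29 replicate 2, 29 of 29 genes that were at 50 CPM or more in every HCT116 library and at 1 CPM or less in the other HT-29 libraries were above 1 CPM, at a median of 5.46% of their HCT116 level. The genes of the other lines, chosen alike, stood there at 2.16% or less of their own line's level. In 54 pairs of another library and a foreign line with at least 10 such genes, the median was at most 0.38%. The level of CAV1 in this library, 161 CPM, was above the 58.9 CPM that a 5.46% share of HCT116 RNA would give. The same held for CAV2 (147 against 89.2 CPM), CAVIN1 (180 against 131 CPM) and CAVIN2 (4.73 against 2.61 CPM). It held as well for CAVIN3 (1.92 against 1.31 CPM) and EHD2 (151 against 122 CPM). The cause was not tested. Results on HT-29 are also given without it where that changes a call or moves a log2 fold change by about 1 or more. CCD841CoN replicate 1 differed from replicates 2 and 3 in each of the 6 genes, and the 0.1% mixtures lay close to it, as described with the mixtures.

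The sequence just upstream of a gene's start is where its promoter usually lies. Windows of 300 bases, from 250 before to 50 after the start, were taken from RefSeq (GRCh38.p14), and 4 of 6 genes had an entry; where RefSeq lists several starts, the window at the gene's annotated start was used. They are shown because each of these genes was lower in the cancer lines than in CCD841CoN, and capitals mark matches to short motifs. In CAV1, CAV2 and EHD2 the capitals mark the GC box GGGCGG on either strand, and in CAVIN2 they mark GGAATG, the core bound by TEAD factors.
CAV1 (chr7:116524759-116525058, plus strand): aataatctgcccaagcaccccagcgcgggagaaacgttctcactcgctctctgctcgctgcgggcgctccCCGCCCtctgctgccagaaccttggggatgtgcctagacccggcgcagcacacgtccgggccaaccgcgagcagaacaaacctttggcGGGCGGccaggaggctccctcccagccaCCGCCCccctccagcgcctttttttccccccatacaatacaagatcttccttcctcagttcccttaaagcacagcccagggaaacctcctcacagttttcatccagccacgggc
CAV2 (chr7:116499488-116499787, plus strand): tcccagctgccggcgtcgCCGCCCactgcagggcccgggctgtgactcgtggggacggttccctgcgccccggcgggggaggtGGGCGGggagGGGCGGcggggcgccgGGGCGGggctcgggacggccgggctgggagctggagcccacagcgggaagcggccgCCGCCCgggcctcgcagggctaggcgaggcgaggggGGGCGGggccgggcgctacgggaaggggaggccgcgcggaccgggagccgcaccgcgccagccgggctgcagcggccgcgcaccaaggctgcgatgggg
CAVIN2 (chr2:191847039-191847338, minus strand): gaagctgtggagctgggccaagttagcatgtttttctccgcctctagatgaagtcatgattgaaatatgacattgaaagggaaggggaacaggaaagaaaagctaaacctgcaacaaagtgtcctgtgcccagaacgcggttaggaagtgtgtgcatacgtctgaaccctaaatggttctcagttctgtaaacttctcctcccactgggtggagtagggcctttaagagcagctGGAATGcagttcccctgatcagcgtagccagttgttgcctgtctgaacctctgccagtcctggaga
EHD2 (chr19:47713172-47713471, plus strand): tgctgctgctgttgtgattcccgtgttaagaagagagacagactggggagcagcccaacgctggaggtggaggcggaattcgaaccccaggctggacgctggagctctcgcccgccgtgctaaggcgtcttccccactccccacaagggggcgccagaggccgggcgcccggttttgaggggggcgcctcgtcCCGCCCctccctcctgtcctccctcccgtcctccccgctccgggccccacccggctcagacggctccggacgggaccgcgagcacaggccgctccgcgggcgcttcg

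The promoter windows differed in base composition. CAV2 had the highest share of G and C, 82.7%, with 43 CpG dinucleotides and 6 GC boxes, and 99.1% of all windows had a lower share. EHD2 had 71% G and C with 30 CpG dinucleotides and 1 GC box, and CAV1 had 62.3% with 19 CpG dinucleotides and 3 GC boxes. CAVIN2 had 49.3% G and C, 5 CpG dinucleotides and no GC box, below the median share of 58.7% over all 35116 windows. A GC box stood in 45% of all windows and GGAATG in 14%. None of the 4 windows held TATAAA (11.5% of all windows), CAGGTG (20.6%) or a CArG box (1.29%), each searched on both strands. A match is a description of letters, not of a bound site. CAVIN1 and CAVIN3 were the members whose windows are not shown.

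In the mean of the 4 cancer lines against CCD841CoN, all 6 genes fell, while 22.3% of the genes tested were called lower. Their log2 fold changes lay between -8.76 and -3.86 with a median of -5.80, beside a median of 0.22 over all genes tested (0.51 with scaling by library size alone and 0.07 with DESeq2's size factors). For each of the 6 genes every cancer library lay below every CCD841CoN library. The share of all genes tested with such a separation was not counted. The same 6 genes were called lower in LoVo (beside 21.6% of genes tested), in LS1034 (21.4%) and in HT-29 (20.9%). In HCT116, 5 of 6 were called lower (21.2%), and CAV1 was the exception. These 5 comparisons share the CCD841CoN libraries, and the members were chosen with earlier results of these data known.

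**Figure D1:**
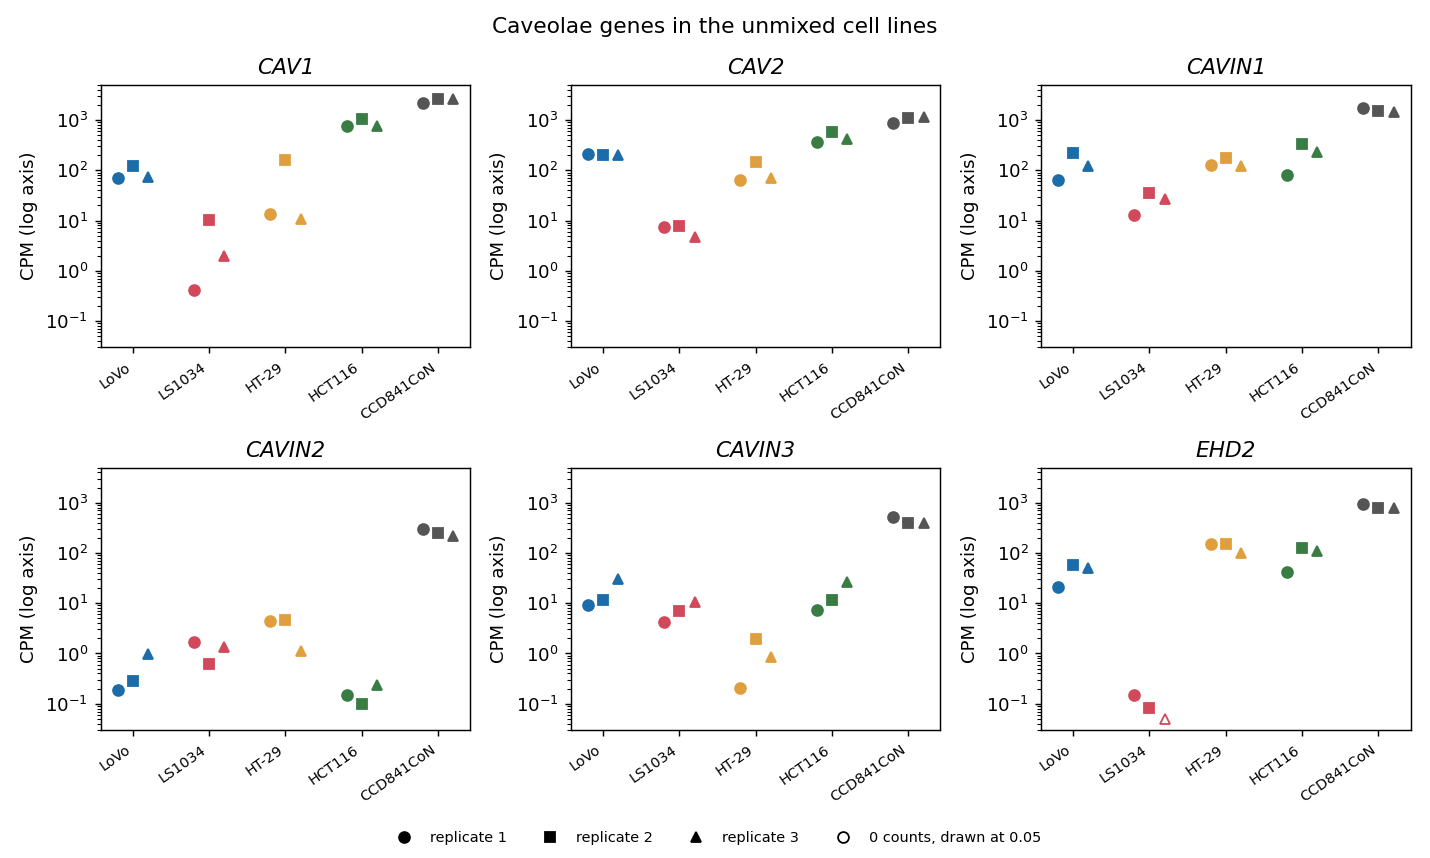
CPM of each caveolae gene (log axis) in the 3 unmixed libraries of LoVo, LS1034, HT-29, HCT116 and CCD841CoN. Each point is 1 library, its shape gives the replicate number, and the open point is LS1034 replicate 3, with 0 counts of EHD2, drawn at 0.05. The cancer libraries lie below the CCD841CoN libraries in every panel, and LS1034 lies lowest for CAV1, CAV2, CAVIN1 and EHD2.

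CAV1 encodes caveolin-1, the protein that builds the caveolar scaffold outside striated muscle. It stood at 69.7, 123 and 72.1 CPM in LoVo, at 0.409, 10.4 and 1.94 CPM in LS1034 and at 13.5, 161 and 10.8 CPM in HT-29 (replicates 1, 2 and 3). In HCT116 it stood at 765, 1058 and 779 CPM, against 2166, 2592 and 2657 CPM in CCD841CoN. HCT116 was thus the cancer line nearest to CCD841CoN, at 35.1% of its mean level, and LS1034 carried the least of the 5 lines. The log2 fold change against CCD841CoN was -5.15 ± 1.02 in LoVo (edgeR adjusted p = 5.02e-04), -9.49 ± 1.24 in LS1034 (adjusted p = 9.04e-06) and -5.62 ± 1.05 in HT-29 (adjusted p = 3.02e-04). In HCT116 it was -1.83 ± 0.88 (adjusted p = 0.093) and was not called, although the 3 HCT116 libraries lay below the 3 CCD841CoN libraries. The HCT116 difference was called when the fit held HCT116 and CCD841CoN alone (-1.89 ± 0.26, adjusted p = 1.19e-04), with the replicate number as a block (-1.87, adjusted p = 0.0253), without LS1034 replicate 2 (-1.89, adjusted p = 0.0463) and without HT-29 replicate 2 (-1.89, adjusted p = 0.0231).

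CAV1 varied widely between libraries of 1 line. The highest library was 25.4 times the lowest in LS1034 and 14.8 times in HT-29, against 1.23 times in CCD841CoN. In each of the 4 cancer lines replicate 2 was the highest, and the part of the replicate in this was not tested. Without HT-29 replicate 2 the HT-29 log2 fold change against CCD841CoN was -7.99 ± 1.03 (edgeR adjusted p = 1.20e-05), further below CCD841CoN than with it. Without LS1034 replicate 2 the LS1034 log2 fold change was -11.49 ± 1.40 (adjusted p = 7.80e-06). DESeq2 gave no adjusted p for CAV1 in the unmixed comparisons, so the calls of CAV1 between lines rest on edgeR alone.

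CAV2 encodes caveolin-2, which joins caveolin-1 in hetero-oligomers and depends on it to leave the Golgi. It stood at 211, 206 and 198 CPM in LoVo, at 7.47, 7.79 and 4.63 CPM in LS1034 and at 65.4, 147 and 70.5 CPM in HT-29. In HCT116 it stood at 360, 588 and 426 CPM, against 870, 1110 and 1130 CPM in CCD841CoN. The order of the lines was that of CAV1, and no cancer line overlapped CCD841CoN. The highest library was 1.68 times the lowest in LS1034 and 2.25 times in HT-29, less than for CAV1, and 1.63 times in HCT116, more than for CAV1. The log2 fold change was -2.66 ± 0.30 in LoVo (edgeR adjusted p = 2.26e-06), -7.57 ± 0.38 in LS1034 (adjusted p = 6.32e-10), -3.72 ± 0.32 in HT-29 (adjusted p = 9.24e-08) and -1.50 ± 0.29 in HCT116 (adjusted p = 4.67e-04). On average CAV2 kept 44.2% of its CCD841CoN level in HCT116 and 0.64% in LS1034.

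The count of CAV1 per count of CAV2 within a library does not depend on its depth. It was 0.33, 0.601 and 0.364 in LoVo, 0.0547, 1.33 and 0.419 in LS1034 and 0.206, 1.09 and 0.154 in HT-29. It was 2.12, 1.80 and 1.83 in HCT116, against 2.49, 2.34 and 2.35 in CCD841CoN. HCT116 was the cancer line nearest to CCD841CoN in this ratio, and the other 9 cancer libraries lay below every HCT116 library. The ratio does not correct for the lengths of the genes, so it shows how the pair differed between libraries and not which transcript was more abundant.

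**Figure D2:**
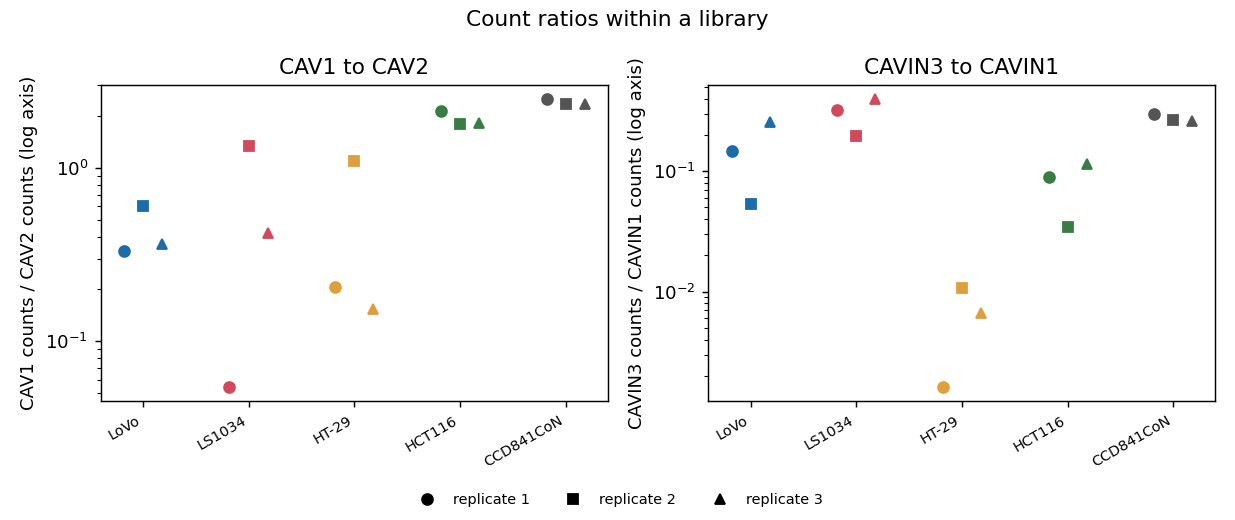
Counts of CAV1 per count of CAV2 (left) and of CAVIN3 per count of CAVIN1 (right) in each unmixed library (log axes; points are libraries, shapes are replicates). CAV1 per CAV2 was 1.80 to 2.12 in HCT116 and 2.34 to 2.49 in CCD841CoN, and CAVIN3 per CAVIN1 was lowest in HT-29.

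CAVIN1 encodes cavin-1, the coat protein that caveolae need to form. It stood at 63.4, 220 and 119 CPM in LoVo, at 13.1, 35.9 and 27.0 CPM in LS1034 and at 129, 180 and 124 CPM in HT-29. In HCT116 it stood at 81.1, 329 and 229 CPM, against 1777, 1504 and 1474 CPM in CCD841CoN. LoVo, HT-29 and HCT116 overlapped one another, and the LS1034 libraries lay below theirs. Replicate 2 was the highest in each of the 4 cancer lines, as for CAV1. The log2 fold change was -3.93 ± 0.51 in LoVo (edgeR adjusted p = 8.01e-06), -6.25 ± 0.57 in LS1034 (adjusted p = 1.57e-07), -3.71 ± 0.50 in HT-29 (adjusted p = 1.29e-05) and -3.23 ± 0.49 in HCT116 (adjusted p = 4.71e-05).

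CAVIN2 encodes cavin-2, a coat protein that binds phosphatidylserine and shapes membrane curvature. It stood at 0.187, 0.282 and 0.957 CPM in LoVo, at 1.66, 0.625 and 1.34 CPM in LS1034 and at 4.39, 4.73 and 1.11 CPM in HT-29. In HCT116 it stood at 0.151, 0.0971 and 0.231 CPM, against 305, 253 and 215 CPM in CCD841CoN. The cancer lines as a set held the least of CAVIN2, at 0.509% of its mean CCD841CoN level, and the 3 HCT116 libraries held 12 counts in all. Its log2 fold change was -9.65 ± 0.69 in LoVo (edgeR adjusted p = 1.61e-08), -8.00 ± 0.63 in LS1034 (adjusted p = 3.36e-08), -6.47 ± 0.58 in HT-29 (adjusted p = 1.50e-07) and -10.91 ± 0.73 in HCT116 (adjusted p = 1.19e-08). By mean CPM, HCT116, the line with the most CAV1, CAV2 and CAVIN1 of the 4 cancer lines, thus had the least CAVIN2. It was not called above HT-29 for CAVIN1 (edgeR adjusted p = 0.442) or below LoVo for CAVIN2 (adjusted p = 0.251).

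CAVIN3 encodes cavin-3, a coat protein that binds protein kinase C delta and takes part in caveolar traffic. It stood at 9.38, 11.8 and 30.5 CPM in LoVo, at 4.23, 7.08 and 10.7 CPM in LS1034 and at 0.209, 1.92 and 0.833 CPM in HT-29. In HCT116 it stood at 7.30, 11.4 and 26.5 CPM, against 529, 402 and 388 CPM in CCD841CoN. HT-29 lay below the other cancer lines in each of its libraries, and the libraries of LoVo, LS1034 and HCT116 overlapped. The log2 fold change was -5.00 ± 0.69 in LoVo (edgeR adjusted p = 1.55e-05), -6.18 ± 0.73 in LS1034 (adjusted p = 2.87e-06), -9.06 ± 0.84 in HT-29 (adjusted p = 2.25e-07) and -5.18 ± 0.69 in HCT116 (adjusted p = 1.36e-05). Without HT-29 replicate 2, the highest of the HT-29 libraries, the HT-29 value was -10.29 ± 0.98 (adjusted p = 4.76e-07). Counts of CAVIN3 per count of CAVIN1 were 0.0016, 0.011 and 0.0067 in HT-29, against 0.298, 0.267 and 0.263 in CCD841CoN. In LS1034 the same ratio was 0.322, 0.197 and 0.395, a range that took in the CCD841CoN values.

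EHD2 encodes a dynamin-related ATPase that assembles at the caveolar neck. It stood at 21.2, 56.5 and 49.3 CPM in LoVo, at 148, 151 and 101 CPM in HT-29 and at 42.2, 128 and 108 CPM in HCT116. In LS1034 it had 5, 2 and 0 counts, and 0 counts in replicate 3 allow a level of up to 0.224 CPM by counting error. In CCD841CoN it stood at 926, 774 and 782 CPM. LS1034 was thus near 0 for EHD2, while the other cancer lines kept 5.12 to 16.1% of the mean CCD841CoN level. The log2 fold change was -4.64 ± 0.44 in LoVo (edgeR adjusted p = 3.06e-07), -2.89 ± 0.41 in HT-29 (adjusted p = 1.99e-05) and -3.49 ± 0.42 in HCT116 (adjusted p = 4.27e-06). In LS1034 the fitted value was -13.30 ± 0.67 (adjusted p = 6.32e-10), a size that with 7 counts depends on the fit.

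**Figure D3:**
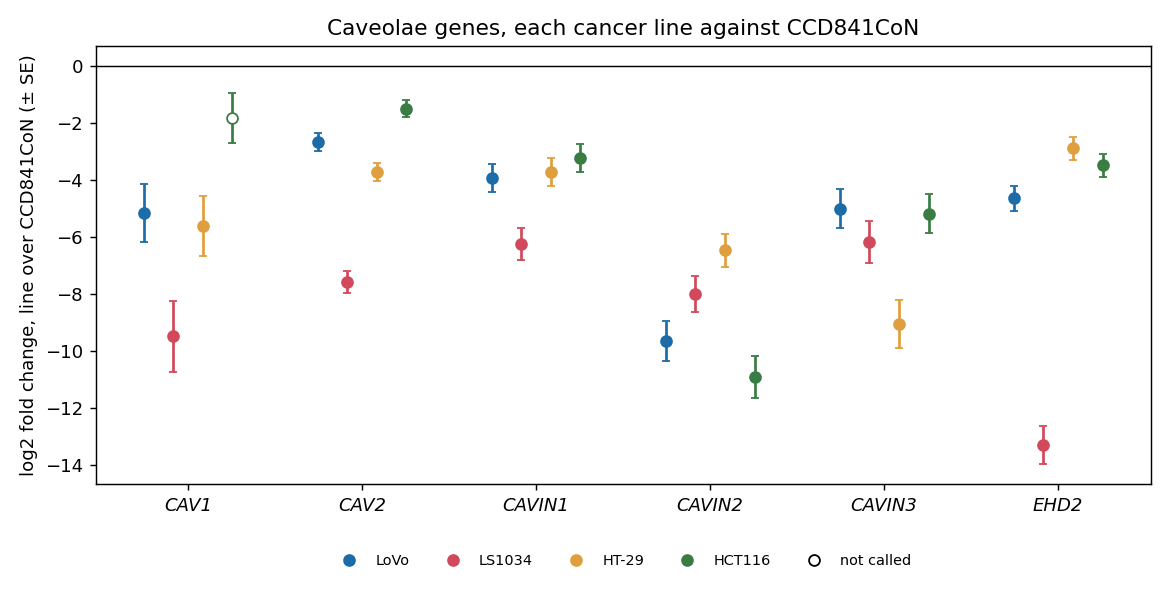
Log2 fold change of each caveolae gene in LoVo, LS1034, HT-29 and HCT116 against CCD841CoN. Points are edgeR estimates, bars are ± SE, and the open point (CAV1 in HCT116) was not called. The values run from -13.30 for EHD2 in LS1034 to -1.50 for CAV2 in HCT116.

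The 4 cancer lines were then compared with one another. A test of any difference among them was passed by all 6 genes, but also by 57.4% of the genes tested. The range between lines differed by gene. Mean CPM in the highest line was 205 times that in the lowest for CAV1 (HCT116 over LS1034), 69.1 times for CAV2 (HCT116 over LS1034) and 8.41 times for CAVIN1 (HCT116 over LS1034). It was 21.3 times for CAVIN2 (HT-29 over HCT116) and 17.4 times for CAVIN3 (LoVo over HT-29). HT-29 averaged 0.989 CPM of CAVIN3 over its 3 libraries and 0.521 CPM without replicate 2, so the CAVIN3 ratio is larger without that library. HT-29 was the highest for EHD2 and LS1034, with its 7 counts, the lowest.

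Placed in order of mean CPM, CAV1 ran from HCT116 (867 ± 166 CPM, SD, n = 3) through LoVo (88.4 ± 30.4) and HT-29 (61.7 ± 85.7) to LS1034 (4.24 ± 5.36). The step between HCT116 and LoVo was called (log2 difference 3.33 ± 0.94, edgeR adjusted p = 0.0158), and LoVo and HT-29 overlapped (0.47 ± 0.86, adjusted p = 0.724). The step between HT-29 and LS1034 was called (3.87 ± 0.98, adjusted p = 0.00787). The HT-29 results turned on its replicate 2. Without it, CAV1 was called higher in LoVo than in HT-29 (2.78 ± 0.80, adjusted p = 0.0174), and LS1034 was no longer called lower than HT-29 (-1.54 ± 0.72, adjusted p = 0.147). Without LS1034 replicate 2 the same difference was -5.78 ± 1.13 (adjusted p = 0.00179). HT-29 against HCT116 was -3.79 ± 0.96 with it and -6.10 without it. The step between LoVo and HCT116 was not called without LoVo replicate 1 (adjusted p = 0.0704) or without LoVo replicate 3 (adjusted p = 0.0684).

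CAV2 ran in the same order, and each step was called. HCT116 stood above LoVo by 1.17 ± 0.29 on the log2 scale (edgeR adjusted p = 0.0072), LoVo above HT-29 by 1.06 ± 0.29 (adjusted p = 0.011) and HT-29 above LS1034 by 3.84 ± 0.32 (adjusted p = 4.78e-07). The first pair of steps lay near the fold limit. LoVo against HT-29 was 0.98, 0.88 and 0.92 without LoVo replicate 1, HT-29 replicate 1 and HT-29 replicate 3, and LoVo against HCT116 was -0.97 without HCT116 replicate 2, none of which was called.

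The order by mean CPM was another for CAVIN2 and CAVIN3 than for the caveolins. For CAVIN1, HT-29 averaged 144 CPM and LoVo 134 CPM. HT-29 averaged 126 CPM without its replicate 2, but replicate 2 was also the highest in LoVo (220 CPM, against 63.4 and 119 CPM). The order of HT-29 and LoVo was thus not settled. For CAVIN1 neither HCT116 and HT-29 (log2 difference 0.48 ± 0.45, edgeR adjusted p = 0.442) nor HT-29 and LoVo (0.22 ± 0.45, adjusted p = 0.759) differed beyond their spread, and LoVo stood above LS1034 (2.32 ± 0.47, adjusted p = 0.00149). For CAVIN2 the order was HT-29, LS1034, LoVo and HCT116. HT-29 against HCT116 gave 4.44 ± 0.64 (adjusted p = 7.07e-05) and LS1034 against HCT116 gave 2.91 ± 0.67 (adjusted p = 0.00266), both the reverse of the caveolin order. The neighbours LS1034 and LoVo (1.65 ± 0.61, adjusted p = 0.0502) and LoVo and HCT116 (1.26 ± 0.76, adjusted p = 0.251) were not called apart.

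CAVIN2 in LS1034 against HT-29 (-1.53 ± 0.51, edgeR adjusted p = 0.0375) was called with overlapping libraries, and the call was lost without HT-29 replicate 2 (-1.24, adjusted p = 0.126) and with a replicate block among the cancer lines (-1.68, adjusted p = 0.123). It was also lost without LS1034 replicate 2 (-1.16, adjusted p = 0.142), LS1034 replicate 3 (-1.62, adjusted p = 0.0696), HT-29 replicate 1 (-1.29, adjusted p = 0.124) or any single CCD841CoN library (adjusted p = 0.0518 to 0.0549), and with LS1034 and HT-29 fitted alone (-1.52, adjusted p = 0.121). CAVIN2 in LoVo against LS1034, not called, was called with the replicate block over all lines (-1.66, adjusted p = 0.0486) but not with the block among the cancer lines (-1.53, adjusted p = 0.167). It was also called with DESeq2 (-1.59, adjusted p = 0.0282), with DESeq2's size factors (-1.66, adjusted p = 0.0471), without LoVo replicate 3 (-2.46, adjusted p = 0.0089), without LS1034 replicate 2 (-1.98, adjusted p = 0.025) and without HT-29 replicate 2 or 3 (adjusted p = 0.0479 and 0.0265).

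For CAVIN3, LoVo, HCT116 and LS1034 followed one another without a called step (log2 difference 0.18 ± 0.59 and 1.00 ± 0.60, edgeR adjusted p = 0.869 and 0.204), and LS1034 stood above HT-29 (2.87 ± 0.69, adjusted p = 0.00537). Without HT-29 replicate 2 the last difference was 4.05 ± 0.82 (adjusted p = 0.00218), LoVo against HT-29 was 5.21 (4.05 with it) and HT-29 against HCT116 was -5.04 (-3.88 with it). CAVIN3 was thus the member that was higher in LS1034 than in HT-29, where the other 5 were lower in LS1034. For EHD2, HT-29 and HCT116 were not called apart (0.60 ± 0.38, adjusted p = 0.24), HCT116 stood above LoVo (1.15 ± 0.38, adjusted p = 0.0374) and LoVo above LS1034 (8.66 ± 0.61, adjusted p = 8.98e-08). The call of EHD2 between HCT116 and LoVo was lost without LoVo replicate 1 or 3 (adjusted p = 0.169 and 0.0712), HCT116 replicate 2 or 3 (0.165 and 0.117), HT-29 replicate 1 (0.0508) or CCD841CoN replicate 2 or 3 (0.0512 each). It was lost as well with scaling by library size alone (0.0537) and with LoVo and HCT116 fitted alone (0.0928).

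By pair of cancer lines, the members called were 3 of 6 for LoVo against HCT116, all lower in LoVo (22.1% of genes tested called either way, 11.9% higher and 10.2% lower). They were 6 of 6 for LS1034 against HT-29, 1 higher and 5 lower (22.6% either way, 11.4% higher and 11.2% lower), and 4 of 6 for LoVo against LS1034, all higher in LoVo (26.0% either way, 13.2% higher and 12.8% lower). They were 4 of 6 for LoVo against HT-29, 2 each way (27.2% either way, 13.7% higher and 13.4% lower). They were 5 of 6 for LS1034 against HCT116, 1 higher and 4 lower (32.9% either way, 16.6% higher and 16.3% lower). For HT-29 against HCT116, 4 of 6 were called, 1 higher and 3 lower (30.6% either way, 15.2% higher and 15.4% lower). Without HT-29 replicate 2 the counts were 4 for LS1034 against HT-29, 5 for LoVo against LS1034, 5 for LoVo against HT-29 and 4 for HT-29 against HCT116. Beside them, 2982, 3784, 3500 and 4064 of 14760 genes tested were called either way. For LoVo against HCT116 the count was 1 of 6 without LoVo replicate 1, LoVo replicate 3 or HCT116 replicate 2. Genes called either way there were 2768, 2727 and 2839. The 6 pairs share libraries with one another.

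Across the 15 unmixed libraries the genes with the most similar pattern were found by Pearson's r of log2(CPM + 1) among 12296 genes, as a description of points that share 5 lines. For CAV1 they were FSCN1, an actin-bundling protein (r = 0.963), RAB3B, a vesicle GTPase (0.961), and TOX2 (0.96). For CAV2 they were ARHGAP10 (0.975), NBPF3 (0.975) and SOAT1, which esterifies cholesterol (0.971). For CAVIN1 they were SLC2A6, a glucose transporter family member (0.968), PIP5K1C, a kinase that makes PIP2 (0.962), and RAI14 (0.955).

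The patterns of the other members had partners of their own. For CAVIN2 the nearest were PDLIM4, a PDZ-LIM protein of the actin cytoskeleton (r = 0.988), SCN9A, a voltage-gated sodium channel (0.986), and ZNF671, a zinc-finger protein (0.985). For CAVIN3 they were CDKN1A, the cell-cycle inhibitor p21 (0.97), COL6A1, a chain of type VI collagen (0.97), and DEGS1, a desaturase of ceramide synthesis (0.966). For EHD2 they were CD44, the hyaluronan receptor (0.98), A4GALT, a glycosphingolipid synthase (0.972), and TSPYL2 (0.97). Among the members themselves r was highest for CAV1 with CAV2 (0.947) and lowest for CAV2 with CAVIN2 (0.482).

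The RNA mixtures give the same genes at known dilutions of the cancer RNA. At 0.1% cancer RNA the mixtures of LoVo, LS1034, HT-29 and HCT116 held CAV1 at 2163, 2146, 2057 and 2182 CPM. At 1% they held 2217, 2148, 2120 and 2150 CPM, at 10% 1925, 1870, 1770 and 1973 CPM, and at 50% 1229, 960, 864 and 1420 CPM. The 4 mixtures of 0.1% and of 1% overlapped, those of 10% lay below both, and those of 50% lay below those of 10%. The HCT116 mixture at 50% was the highest for CAV1 and for CAV2, whose 50% mixtures stood at 537, 389, 392 and 669 CPM in the same order of lines.

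The mixtures were tested as 4 lines at each percentage, with the line as a block, and a gene was called at the adjusted p alone because dilution shrinks differences. At 1% against 0.1%, 0 of 6 members were called by edgeR or by DESeq2, while edgeR called 0.939% of the 13212 genes tested either way. An unadjusted edgeR p below 0.05 was reached by 0 of 6 members and by 601 of the 13212 genes. At 10% against 0.1%, 3 of 6 fell, beside 1.18% of genes tested. They were CAVIN1 (1533 ± 53.4 CPM at 10% and 1755 ± 41.9 CPM at 0.1%, SD, n = 4; log2 fold change -0.24 ± 0.06, edgeR adjusted p = 0.0158), CAVIN2 (265 ± 7.51 and 306 ± 7.87 CPM; -0.26 ± 0.07, adjusted p = 0.0416) and EHD2 (816 ± 32.7 and 926 ± 44.9 CPM; -0.23 ± 0.06, adjusted p = 0.0315). CAV1 had -0.23 ± 0.09 (adjusted p = 0.159), CAV2 -0.16 ± 0.10 (adjusted p = 0.451) and CAVIN3 -0.19 ± 0.06 (adjusted p = 0.0921). The 10% calls varied with the fit: DESeq2 called 4 of 6 lower, beside 1295 of 13212 genes called either way (976 in the main fit). edgeR called 1 of 6 with no block for the line (502 genes either way) or without the HT-29 mixtures (556 genes). It called 0 of 6 without the mixtures of LoVo, LS1034 or HCT116 (595 to 725 genes) and with scaling by library size alone (918 genes).

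At 50% against 0.1% all 6 members fell, beside 24.1% of genes tested called lower. The log2 fold change lay between -1.24 ± 0.07 for CAVIN2 (edgeR adjusted p = 1.08e-08) and -0.90 ± 0.10 for CAV2 (adjusted p = 6.01e-06). CAVIN2 averaged 142 ± 22.9 CPM at 50% and 306 ± 7.87 CPM at 0.1% (SD, n = 4 each), and CAV2 averaged 497 ± 134 CPM at 50% and 838 ± 20.6 CPM at 0.1%. CAV1 had -1.07 ± 0.09, CAVIN1 -1.08 ± 0.06, CAVIN3 -1.10 ± 0.06 and EHD2 -1.08 ± 0.06. For each member the 4 mixtures of 50% lay below the 4 of 0.1%, a separation that was not counted over all genes.

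**Figure D4:**
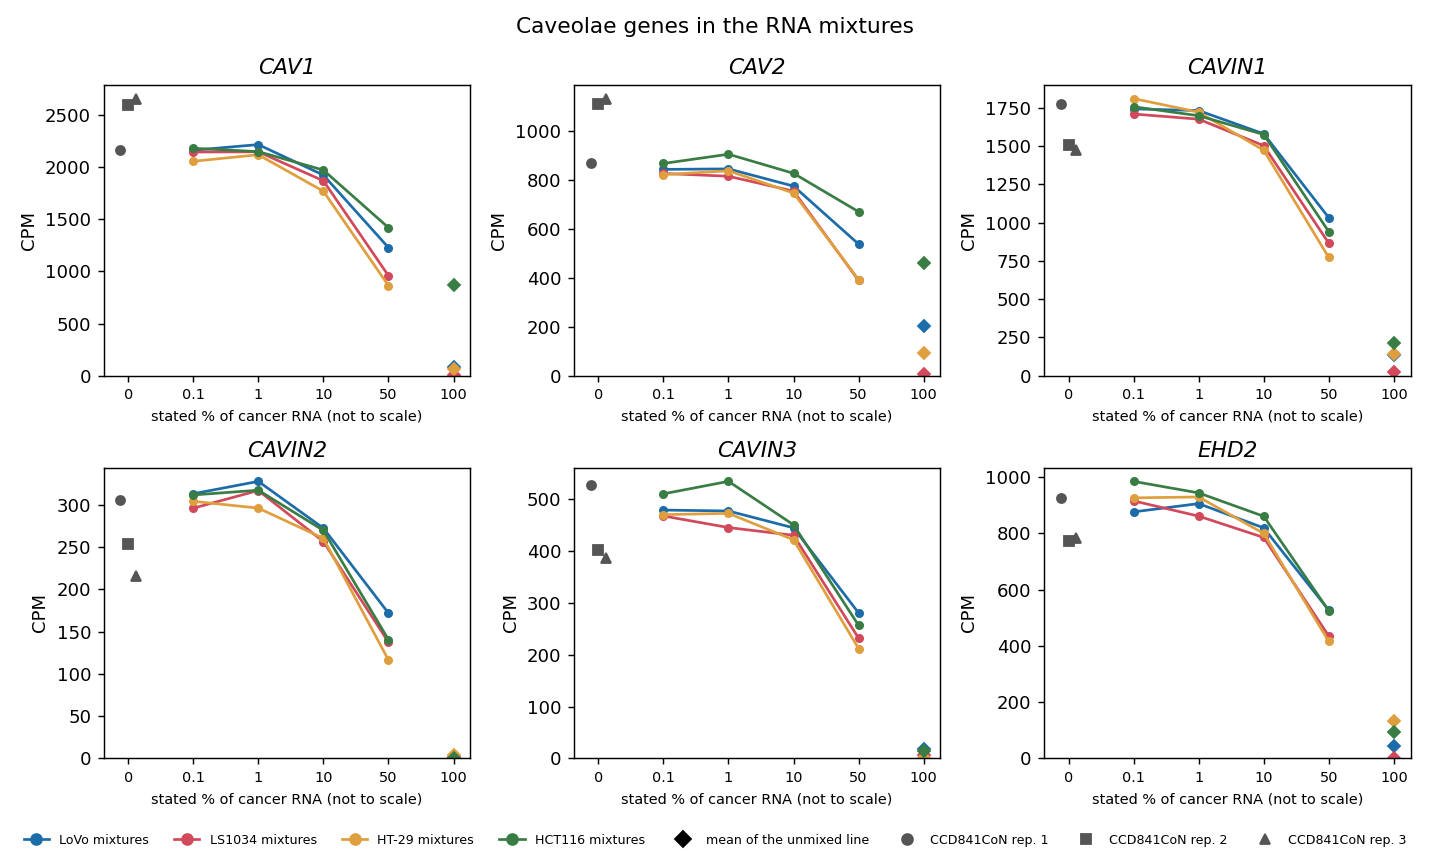
CPM of each caveolae gene against the stated percentage of cancer RNA (positions not to scale), with 1 line of points per cancer line. Points at 0 are the 3 CCD841CoN libraries, and diamonds at 100 are the means of the unmixed cancer lines. The 0.1% mixtures lie near CCD841CoN replicate 1, and all 6 genes are lower at 50% than at 0.1%.

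The measured level was set against the level computed from the unmixed means and the stated percentages. These percentages are of total RNA, whereas CPM is taken over protein-coding counts. At 50% the measured level was 0.682 to 1.33 times the computed one, with a median of 1.00 over 6 genes and 4 lines. By line the median was 1.21 for LoVo, 1.04 for LS1034, 0.878 for HT-29 and 1.07 for HCT116. CAV1 and CAV2 lay below 1 in each of the 4 mixtures of 50%, and CAVIN1, CAVIN2, CAVIN3 and EHD2 lay above 1 in all but HT-29.

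The normal end of the mixtures moved these ratios. At 0.1% the mixtures should carry nearly the CCD841CoN level, yet they stood at 0.792 to 1.21 times the computed level. CAV1 stood at 2057 to 2182 CPM in the 0.1% mixtures, beside 2166 CPM in CCD841CoN replicate 1 and 2592 and 2657 CPM in replicates 2 and 3. CAVIN2 stood at 296 to 313 CPM in the 0.1% mixtures, beside 305 CPM in replicate 1 and 253 and 215 CPM in replicates 2 and 3. CAV1 and CAV2 were lower in CCD841CoN replicate 1 than in replicates 2 and 3, and the other 4 genes were higher. The labels do not say which RNA went into the mixtures. With 0.1% mixtures as the normal end, 6 of 6 members were again called lower in LoVo, LS1034, HT-29 and the mean of the cancer lines. In HCT116 it was 5 of 6, again all but CAV1. Beside them, 6996 of 14456 genes tested were called either way in the mean (6806 of 14452 with CCD841CoN). By line, 6738 to 7157 genes were called. The 0.1% mixtures of the 4 lines stood as replicates of the normal end in this fit, so their spread may be technical only. Replicate 1 alone is a lone library with no spread of its own, so no count is given for it.

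With the 0.1% mixture of the same line as the normal end and the unmixed line as the cancer end, each gene implies a share of cancer RNA. The implied share is one of protein-coding counts and the stated share one of total RNA, so they can differ in a correctly made mixture. At the stated 50% the 6 genes gave 41.9 to 47.9% for LoVo (median 44.6%), 50.1 to 55.4% for LS1034 (median 52.9%), 55.1 to 64.4% for HT-29 (median 61.0%) and 48.3 to 57.9% for HCT116 (median 52.2%). LoVo lay below the stated share and HT-29 above it in each of the 6 genes, with no overlap between these 2 lines. At the stated 10% the medians were 10.4% for LoVo, 12.6% for LS1034, 14.5% for HT-29 and 12.8% for HCT116, with single genes between 6.83 and 20.3%. Each mixture was 1 library, so these differences between lines have no replicate.

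**Figure D5:**
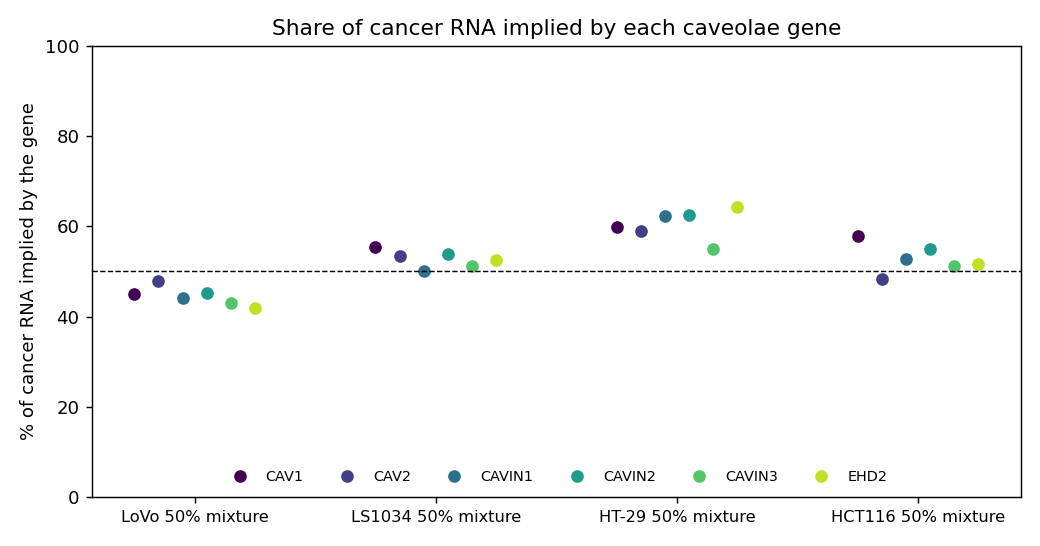
Percentage of cancer RNA implied by each caveolae gene in the 50% mixture of each cancer line, 1 point per gene. The dashed line marks the stated 50%. The points lie at 41.9 to 47.9% for LoVo and at 55.1 to 64.4% for HT-29.

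The neighbours and partners of the caveolae genes were counted from lists of known genes, also chosen with earlier results of these data known. The counts are for the mean of the 4 cancer lines against CCD841CoN (24.8% of genes tested called higher and 22.3% lower). Of the muscle relatives, CAVIN4, the muscle cavin, was lower (0.483 ± 0.554 CPM, SD, n = 12, against 3.48 ± 1.51 CPM, n = 3; edgeR adjusted p = 1.02e-04). Of 14 genes of the EHD, pacsin and dynamin families and other genes of the caveolar neck, 3 were higher and 3 lower, with a median log2 fold change of -0.09. EHD3, an EHD2 relative of recycling endosomes, stood at 0.0804 ± 0.104 CPM in the cancer lines and 133 ± 47.6 CPM in CCD841CoN (log2 fold change -10.98 ± 0.48). EHD1, a recycling EHD protein, was lower as well (-1.93 ± 0.25), and FNBP1L, an F-BAR protein of endocytosis, was higher (3.81 ± 0.45). EHD4 did not pass the fold limit (0.97 ± 0.23). The decrease of EHD2 was thus shared by 2 of 3 tested EHD relatives.

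Raft and coated-pit genes were counted in the same way. Of 11 flotillins and other raft proteins tested, 2 were higher and 3 lower (median -0.18). STOM, an integral protein of lipid rafts, was lower (18.8 ± 24.7 against 1369 ± 42.9 CPM; -8.73 ± 0.53), as was STOML1 (-2.28 ± 0.27), and MAL2, a raft protein of epithelial transcytosis, was higher (999 ± 702 against 0.79 ± 0.543 CPM; 9.83 ± 0.71), as was the prohibitin PHB2 (1.37 ± 0.27). FLOT1 (-0.93 ± 0.28) and FLOT2 (-0.18 ± 0.20), which build flotillin domains, were not called. Of 24 clathrin-coated pit genes tested, 3 were higher and 8 lower (median -0.23). The endocytic adaptor DAB2 was lower (11.6 ± 10.5 against 338 ± 65.1 CPM; -6.19 ± 0.35), as was HIP1, a clathrin adaptor that binds actin (-3.09 ± 0.39). EPN3 (5.16 ± 0.78), FCHO1 (2.84 ± 0.54) and HIP1R (1.03 ± 0.27), adaptors of the same pits, were higher.

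Of 22 membrane proteins reported in caveolae and tested, 3 were higher and 11 lower, with a median log2 fold change of -1.11 beside 0.22 over all genes. The lower ones included THY1 (0.155 ± 0.171 against 691 ± 95.4 CPM; -12.82 ± 0.45) and the PDGF receptors PDGFRA (-10.57 ± 0.48) and PDGFRB (-9.06 ± 0.31), which are also on the fibroblast list. Against the majority, the endothelial nitric oxide synthase NOS3 (15.9 ± 9.25 against 0.0421 ± 0.0429 CPM; 7.85 ± 0.73), the glucose transporter SLC2A4 (3.70 ± 1.17) and the insulin receptor INSR (2.41 ± 0.37) were higher. SLC2A4 was at a low level in every line. It averaged 1.61 CPM in LoVo, 1.34 CPM in HCT116, 0.172 CPM in LS1034 and 0.0482 CPM in HT-29, against 0.0135 CPM in CCD841CoN. Of 11 genes of cholesterol uptake and traffic, 2 were higher and 4 lower (median -0.83). They included the cholesterol exporter ABCA1, which was lower (-3.25 ± 0.56), SOAT1, which was lower (-2.64 ± 0.18), and the exporter ABCG1 and the HDL receptor SCARB1, which were higher (2.71 ± 1.07 and 1.22 ± 0.30). For ABCG1 (edgeR adjusted p = 0.0378) the libraries overlapped, at 0.0833 to 31.8 CPM in the cancer lines and 0.0406 to 2.17 CPM in CCD841CoN.

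CAV1 and CAV2 are adjacent on chromosome 7, between TES and MET in RefSeq's order of genes. Of the flanking genes, MET was called in the other direction and TES was not called. MET, the receptor of hepatocyte growth factor, stood at 503 ± 210 CPM in the cancer lines (SD, n = 12) and 22 ± 2.58 CPM in the 3 CCD841CoN libraries, a log2 fold change of 4.14 ± 0.35 (edgeR adjusted p = 4.30e-08). TES, a focal adhesion protein, gave 0.48 ± 0.38 (adjusted p = 0.287), and CAPZA2, an actin-capping subunit, gave 0.13 ± 0.24 (adjusted p = 0.674). Of the 6 tested genes of this neighbourhood, CFTR, an epithelial chloride channel, was also called higher in the mean (4.64 ± 0.94). It averaged 231 CPM in LoVo and 223 CPM in HT-29, but 0.683 CPM in LS1034 and 0.352 CPM in HCT116, against 0.244 CPM in CCD841CoN. WNT2, a secreted Wnt ligand, was lower (-7.99 ± 0.72), and ST7 was not called (-0.09 ± 0.18).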

How the data were processed

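RNA-seq counts per gene were deposited by the authors as 1 table of 17113 protein-coding genes in 31 libraries. Per the submitters' processing notes, reads were aligned with STAR to hg19 and counted with featureCounts, versions not given in the sources used here. Per the labels' protocols, a stranded kit with removal of ribosomal RNA was used. The counts were tested as deposited in R 4.3.3 with edgeR 4.0.16 (filterByExpr, TMM scaling, quasi-likelihood; limma 3.58.1), and DESeq2 1.42.0 was the alternative tool. The 15 unmixed libraries were fitted by line, and the 16 mixtures by percentage with the cancer line as a block. CPM, ratios and figures were computed with Python 3.11.15, pandas 2.3.3, numpy 2.4.6, matplotlib 3.10.9 and scipy 1.17.1. The fits were tried on simulated data with the same spread for every gene and no pairing of libraries, a simpler setting than these data. The members, gene lists and markers were chosen with earlier results of these data known. Named genes were the members, the 3 nearest genes by Pearson's r to each, and in each list the 3 called genes of largest fold change and those against its majority; a few uncalled list genes were named after their values were seen. Intervals and floors (3 counts) cover counting error only. Libraries of equal replicate number correlated in 18 of 18 pairs of cancer lines (0.175 to 0.544) and in 0 of 12 pairs with CCD841CoN (-0.0408 to 0.0217, against a limit of 0.1), so the number paired the cancer libraries with one another. Alternatives were other scalings, no filter, DESeq2, fits of the compared lines alone, a replicate block and each library left out.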

Additional observations from a re-analysis of the deposited data

Results flagged for a closer look

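Every member differed between the cancer lines in its distance from CCD841CoN, by the edgeR test of the difference itself over 3 contrasts among LoVo, LS1034, HT-29 and HCT116. The adjusted p was 8.19e-05 for CAV1, 1.79e-08 for CAV2, 6.12e-04 for CAVIN1, 5.66e-05 for CAVIN2, 8.23e-04 for CAVIN3 and 2.57e-08 for EHD2. The same test was passed by 57.4% of all genes tested. For CAV1, CAV2, CAVIN1 and EHD2 the line farthest from CCD841CoN was LS1034, for CAVIN2 it was HCT116 and for CAVIN3 it was HT-29. In the mixtures, 24 groups of 4 libraries (6 genes at 4 percentages) were searched for a library far from the others, and 0 were found, where chance gives about 1 in 20.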

How the results depend on the processing

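Of 1757 recomputed member results, 1692 kept their direction and side of the threshold, 41 lost a call, 13 gained one and 11 changed sign, all 11 among results that were not called. DESeq2 gave no adjusted p for CAV1 in 12 unmixed comparisons, so its counts there are over the other 5 members. The count for LoVo against HCT116 was 1 to 3 of 6 with a library left out. The count for 10% against 0.1% was 4 with DESeq2, 0 with library size only, 1 with no block for the line and 0 to 1 without the mixtures of a line, fewer libraries in the last case; otherwise the cause was not tested. The measured over computed level at 50% was 0.8293 with TMM library sizes, by construction a rescaling. The sign changes were CAVIN3 in LoVo against HCT116 (-0.507 without LoVo replicate 3, -0.15 and -0.0062 without HCT116 replicates 1 and 2, up to 0.90 without HCT116 replicate 3), CAV1 in LoVo against HT-29 (-0.016 without HT-29 replicate 3, up to 2.78 without HT-29 replicate 2) and CAVIN1 in LoVo against HT-29 (0.11 without LoVo replicate 1, 6.82e-05 without HT-29 replicate 2, down to -0.68 without LoVo replicate 2). CAVIN3 at 1% against 0.1% (-0.0010) was 0.000256 with library size only, 0.000987 with no filter, 0.000671 with no line block, -0.023 without the HCT116 mixtures, and 0.00325 and 0.023 without the LoVo and LS1034 mixtures.

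With the replicate number as a block, CAV1 in HCT116 against CCD841CoN (adjusted p = 0.0253) and CAVIN2 in LoVo against LS1034 (adjusted p = 0.0486) gained a call. With the block among the cancer lines only, CAVIN2 in LoVo against LS1034 was not called (adjusted p = 0.167) and CAVIN2 in LS1034 against HT-29 lost its call (adjusted p = 0.123). The pairing changed no other call. Depth limits CAVIN2 in HCT116 (12 counts) and EHD2 in LS1034 (7 counts), whose fold changes rest on few counts.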
